A study of Mus musculus with 8 samples.

Results

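The cytosolic chaperonin CCT, also called TRiC, is built from related subunits encoded by separate genes, and 9 such genes were followed here through mouse spermatogenesis: Tcp1, Cct2, Cct3, Cct4, Cct5, Cct6a, Cct6b, Cct7 and Cct8. Members were taken as all probe sets that the platform annotation assigned only to 1 of these genes, which gave 26 of the 45037 non-control probe sets and 9 of the 18193 named genes. Of the 26, 22 exceeded the median signal of their array on at least 2 of the 8 arrays and were tested, while 4 (1 of Cct3, 2 of Cct4 and 1 of Cct8) lay below the median on every array, at signals of 0.9 to 34.5. All 9 genes kept at least 1 tested probe set. Cct6b passed on 5 of 8 arrays.

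CCT is a barrel of stacked rings that closes around an unfolded protein and uses ATP to fold it, and actin and tubulin are its best known clients. Prefoldin delivers clients to it, phosducin-like proteins act as its cofactors, and tubulin folding cofactors take over the tubulin it releases. Male germ cells build several large microtubule structures after the mitotic phase, the meiotic spindle and the sperm flagellum among them, and Cct6b is known as the testis counterpart of the zeta subunit Cct6a.

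Spermatogonia of type A and of type B, spermatocytes in pachytene, and round spermatids formed the 4 groups, each on 2 arrays of the Mouse 430 2.0 design. Spermatogonia divide by mitosis, pachytene spermatocytes are in meiotic prophase, and round spermatids are haploid. All groups were labelled with the mixed strain background BL/6-129 and total RNA, with no transgene or treatment named, and each array came from its own germ cell preparation per the series design. How the cells were separated, the age of the animals and whether animals were pooled were not given in the sources used here.

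Type B replicate 2 stood apart before any CCT value is read. The summed signal of 8 pachytene marker genes was 551 and 473 on the type A arrays, 600 on type B replicate 1, 8564 on type B replicate 2, and 18209 to 21463 on the 4 later arrays. The sum of 8 round spermatid markers was 84.0 to 112 on the other 3 spermatogonial arrays, 1761 on type B replicate 2, 2737 and 3012 in pachytene cells, and 29434 and 33719 in spermatids. Replicates correlated across probe sets at r = 0.933 in type A, 0.900 in type B, 0.972 in pachytene cells and 0.978 in spermatids. Called changes from type B to pachytene cells, of CCT genes and of the partner genes named with their lists further on, are given with and without that array. The 7 undifferentiated spermatogonial markers with a probe set summed to 2413 and 2348 in type A and to 1694 and 1351 in type B. The 6 differentiating ones summed to 3387 and 3807, and to 3955 and 3228. From type B to pachytene cells 4 of the 7 and 5 of the 6 were called lower, but 1 of each, Id4 and Dmrtb1, higher. Markers of other testis cells also moved with stage. The 7 peritubular and stromal markers summed to 9353 to 14660 in spermatogonia and 703 to 1171 in the later cells, and all 7 fell between type B and pachytene cells. The 7 Sertoli markers summed to 4006 to 7304 on spermatogonial, 2626 and 3351 on pachytene and 524 and 574 on spermatid arrays, with 3 of 7 called lower in pachytene than in type B cells. The 4 Leydig markers with a probe set summed to 631 to 1497, 517 and 945, and 88.5 and 88.8, with 1 of 4 lower, and the 8 macrophage and blood markers to 579 to 1168, 236 and 253, and 497 and 497, with 5 of the 6 tested lower. No defining marker of these lists was listed at 0. On each pachytene array 3 of 7 stromal, 1 of 7 Sertoli, 0 of 4 Leydig and 6 of 8 macrophage and blood markers lay below the array median. Among them were Col1a1 and Pdgfra (stromal), Amh (Sertoli) and Lyz1 (macrophage), whereas Clu (Sertoli) was still 1833 and 2463. The part of these cells in the CCT values was not tested, and in bulk samples fewer cells of a type and less RNA per cell cannot be told apart.

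The upstream sequences are shown for the members on which the comparison of paralogs turns, Cct6b and Cct6a, and for Cct3, Cct5 and Cct2 as examples of the arrangement around the ubiquitous subunits. They are RefSeq sequences of the build GRCm38.p6, read 5′ to 3′ on the strand of the gene. The table of starts held 8 of the 9 genes, Cct4 excepted, and 7 of these 8 had the start of another gene on the opposite strand within 1000 bases, against 16.2% of 17492 protein-coding genes. Cct2 was the exception. The 1 listed start of Cct6b, at chr11:82764321, lay 24 bases from that of Zfp830, which encodes a zinc finger protein. The gene record of Cct6b reaches further upstream, to chr11:82764388, so this distance holds for the listed start only. The stretch printed for Cct6b covers chr11:82764319-82764348, on the minus strand, with the 23 bases between the listed starts in capitals.

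Cct6b: gtctAGCTTCCGAGGCGTGATAGCGTCact

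For Cct6a, on the plus strand with its start at chr5:129787356 and 103 bases from that of Psph, 3 stretches of 30 bases are shown at chr5:129787150-129787179, chr5:129787198-129787227 and chr5:129787229-129787258. Capitals mark TGACG, the core of the cAMP response element.

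Cct6a 1: agcgccgaaccgTGACGctggggggcgagc
Cct6a 2: ccagagtgccgaTGACGggagaaccagttt
Cct6a 3: tcagatgcgcaaTGACGtcgcaactgggcg

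For Cct3 the 135 bases between the record of Tsacc and its own start are shown, at chr3:88297000-88297134 on the plus strand. For Cct5 (chr15:31601847-31602096, minus strand) and Cct2 (chr10:117063853-117064102, minus strand) the 250 bases before the first listed start are shown. Capitals mark the GC box GGGCGG and the CCAAT box, on either strand.

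Cct3: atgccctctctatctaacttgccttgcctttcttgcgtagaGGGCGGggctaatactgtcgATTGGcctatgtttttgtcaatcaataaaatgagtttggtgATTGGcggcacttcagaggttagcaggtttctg
Cct5: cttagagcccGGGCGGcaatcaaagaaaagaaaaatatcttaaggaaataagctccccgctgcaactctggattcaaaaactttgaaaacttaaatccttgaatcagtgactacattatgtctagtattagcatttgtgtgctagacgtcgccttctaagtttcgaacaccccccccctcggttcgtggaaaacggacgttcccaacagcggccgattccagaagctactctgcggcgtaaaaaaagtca
Cct2: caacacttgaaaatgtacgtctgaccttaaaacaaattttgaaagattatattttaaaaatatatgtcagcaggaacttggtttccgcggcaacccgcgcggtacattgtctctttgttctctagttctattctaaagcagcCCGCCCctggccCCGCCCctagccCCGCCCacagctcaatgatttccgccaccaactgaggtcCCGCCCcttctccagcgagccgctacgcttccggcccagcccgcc

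In the 250 bases before a start, GGGCGG on either strand was found in 7 of the 8 genes, all but Cct6b. Cct2 and Cct5 had 2 listed starts each, so these were 8 of 10 windows, against 32.7% of 32851 windows of the same length. CCAAT on either strand was found in Tcp1, Cct3, Cct6a and Cct7, 4 of the 10 windows, against 33.8% of windows. TGACG on either strand was found in Cct6a, against 17.8%, and the full element TGACGTCA, which contains it, in no member, against 1.55%. The RFX motif GTTGCC (10.4% of windows) was found before the first listed start of Cct2, in the printed stretch. The heat shock element core GAANNTTC (6.69%) was found before the other listed start of Cct2, outside that stretch. TATAAA (12.4%) was found in no member. None of these motifs was found in the 250 bases before the listed start of Cct6b, whose printed stretch holds the reverse complement of TGACG across that start. These matches describe letters in a window and were not tested for binding.

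Cct6b was the member whose signal differed most between stages. Its probe set 1419227_at gave 15.5 and 20.0 in type A, 22.9 and 337.4 in type B, 1623.6 and 1801.1 in pachytene cells, and 1774.7 and 1774.8 in round spermatids. The 3 spermatogonial arrays other than type B replicate 2 lay below the median signal of their array, and all 4 later arrays lay far above every spermatogonial value. Every change given here is on the scale of log2(signal + 16). Cct6b rose by 5.68 ± 0.82 from type A to pachytene cells (2 arrays against 2, Benjamini-Hochberg adjusted p = 7.84e-04, limma). It was higher by 5.73 ± 0.82 in spermatids than in type A (limma adjusted p = 5.83e-04). These are folds of 51.3 and 53.2 on that scale, on which changes from a low signal come out too small. Here ± is the standard error of the limma fit, whose spread is pooled over all 4 groups. The widest replicate gap of Cct6b was that of type B, and it enters each ± 0.82, also where type B is not compared. From type B to pachytene cells the change was 3.88 ± 0.82 (adjusted p = 0.00566), and it was 5.47 without type B replicate 2 and 2.29 without type B replicate 1. Pachytene cells and spermatids were not separated (0.05 ± 0.82, adjusted p = 0.975), and the pachytene values lay on either side of the spermatid values. Between type A and type B the change of 1.80 ± 0.82 was not called (adjusted p = 0.616). It was 0.21 without type B replicate 2 and 3.39, a called rise, without type B replicate 1. The gap between the type B replicates of Cct6b was 18.6% of the difference between the pachytene mean and type B replicate 1. The same share was 12.3% to 78.0% for the 8 pachytene markers, with a median of 22.1%. The order of the Cct6b levels was type A and type B replicate 1 at the bottom, type B replicate 2 between, and the later arrays at the top.

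The other zeta subunit, Cct6a, had 2 probe sets and no called change in any of the 5 comparisons. Probe set 1423517_at gave 1476.1 and 1709.8 in type A, 1917.9 and 1599.7 in type B, 2082.2 and 2548.5 in pachytene cells, and 1373.1 and 1568.9 in spermatids. Probe set 1455988_a_at gave 1678.1 and 2052.1, 2021.7 and 1894.0, 1908.4 and 1945.5, and 1301.4 and 1309.9 in the same order. For both, the spermatid values lay below all pachytene values, with changes of -0.64 ± 0.22 (adjusted p = 0.0628) and -0.56 ± 0.20 (adjusted p = 0.0734). Among type A, type B and pachytene cells the values of 1455988_a_at overlapped, whereas those of 1423517_at were highest in pachytene cells.

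The comparison of Cct6b with Cct6a was made within each array, as the log2 difference of their signals, set to 0 at the type A mean because levels of different probe sets are not comparable. With 1423517_at for Cct6a, the difference was 0.01 and -0.01 in type A, -0.06 and 3.38 in type B, 5.22 and 5.08 in pachytene cells, and 5.94 and 5.75 in spermatids. The later arrays exceeded the spermatogonial ones by 4.67 on average, and by 5.52 without type B replicate 2. No other split of the 8 arrays into 4 and 4 gave a difference of this size, apart from the mirrored one (exact permutation test over 70 splits, two-sided p = 0.0286, the smallest the design allows), and all 4 later arrays lay above all 4 spermatogonial ones. Across the 4 stages, the share of the spread lying between stages was 0.887 (exact permutation test over the 105 ways to form 4 pairs, one-sided p = 0.0286). The SD within a stage was 0.01 in type A, 2.43 in type B, 0.10 in pachytene cells and 0.13 in spermatids. The difference between pachytene cells and spermatids, 5.15 against 5.85 on average, exceeded the SDs of those 2 stages, but 2 arrays against 2 were not tested on their own. Between these stages Cct6b changed by 0.05 and 1423517_at of Cct6a by -0.64, neither called.

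**Figure D1:**
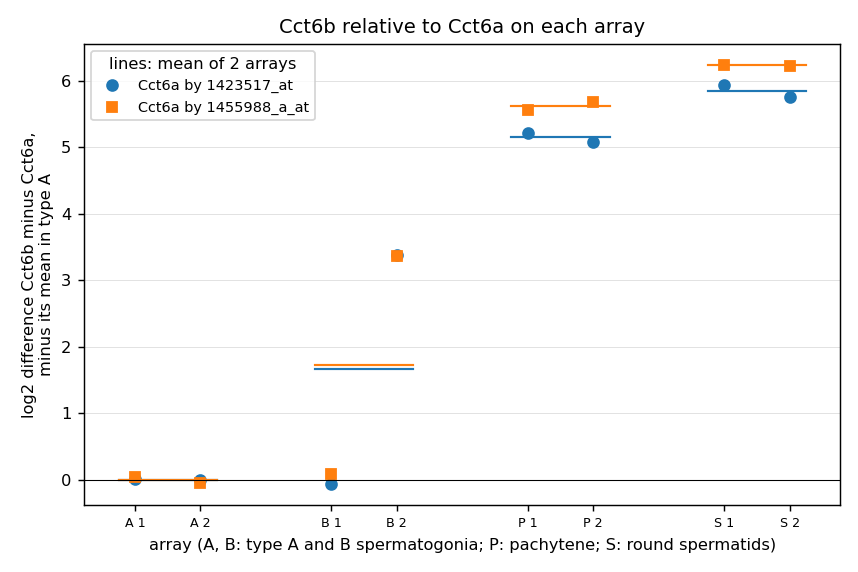
Log2 difference between Cct6b and Cct6a on each of the 8 arrays (vertical axis, set to 0 at the type A mean), for both Cct6a probe sets, with a line at the mean of each stage. The 3 arrays of type A and type B replicate 1 sit near 0, type B replicate 2 at 3.38 and 3.36, and the 4 later arrays between 5.08 and 6.24.

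Tcp1, the alpha subunit after which the complex was first named, rose to pachytene. Its probe set 1448122_at gave 2367.3 and 2250.8 in type A, 2540.8 and 3495.5 in type B, 4625.5 and 5207.0 in pachytene cells, and 4693.2 and 5010.4 in spermatids. All later values exceeded all spermatogonial ones. It rose by 1.08 ± 0.22 from type A to pachytene cells (limma adjusted p = 0.00390), by 0.72 ± 0.22 from type B (adjusted p = 0.0281), and was 1.07 ± 0.22 higher in spermatids than in type A (adjusted p = 0.00360). The rise from type B was 0.95 without type B replicate 2. It was not called without type B replicate 1, without either pachytene array, or with only the groups compared in the fit.

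Cct7, the eta subunit, rose by both of its probe sets. Probe set 1415816_at gave 1316.0 and 1343.5 in type A, 1606.2 and 1633.8 in type B, 2854.6 and 3213.9 in pachytene cells, and 3034.8 and 3083.9 in spermatids. It was 0.90 ± 0.19 higher in pachytene than in type B cells (limma adjusted p = 0.00527) and 1.18 ± 0.19 higher than in type A (adjusted p = 0.00118). Probe set 1415817_s_at gave 873.3 and 1080.1, 952.5 and 970.6, 2142.7 and 2651.7, and 2373.9 and 2244.8, with changes of 1.30 ± 0.21 (adjusted p = 0.00179) and 1.28 ± 0.21 (adjusted p = 0.00144). Without type B replicate 2 the changes from type B were 0.91 and 1.31, both called. In both probe sets the type B replicates were close together, so the later levels stood clear of every spermatogonial array. Pachytene cells and spermatids overlapped, at changes of 0.01 and -0.05.

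Cct4, the delta subunit, rose from type A to pachytene cells by 3 of its 5 tested probe sets. The brightest, 1433447_x_at, gave 1986.2 and 2014.9 in type A, 2373.2 and 2657.1 in type B, 3509.1 and 3647.4 in pachytene cells, and 3246.0 and 3240.7 in spermatids, so that no stage overlapped another. Its change from type A to pachytene cells was 0.83 ± 0.19 (limma adjusted p = 0.00603), and those of 1415867_at and 1438560_x_at were 0.93 and 0.77. From type B to pachytene cells only 1415867_at was called, at 0.58 ± 0.21 (adjusted p = 0.0485), while 1433447_x_at changed by 0.51 ± 0.19 (adjusted p = 0.0530). Without type B replicate 2 these values were 0.75 (called) and 0.59 (not called). The 2 dimmer tested probe sets, 1456082_x_at and 1456572_x_at, were called in no comparison. Probe sets ending in _x_at hold probes with similarity to other sequences, so their values are less certain.

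The probe sets of Cct3, the gamma subunit, disagreed in size and in 1 case in direction. The brightest, 1448178_a_at, ran from 2470.9 and 2643.9 in type A through 2728.6 and 2894.2 in type B to 3217.4 and 3638.3 in pachytene cells, with 3048.5 and 3113.9 in spermatids. The stages did not overlap between type A, type B and pachytene cells, yet the changes to pachytene of 0.42 ± 0.19 from type A (limma adjusted p = 0.0942) and 0.28 ± 0.19 from type B (adjusted p = 0.250) were not called. Probe sets 1459987_s_at and 1449645_s_at rose by 0.90 and 1.29 from type A and by 0.59 and 0.82 from type B. Without type B replicate 2 the latter were 0.66 (adjusted p = 0.0484) and 0.82 (adjusted p = 0.0909, not called). The dim probe set 1439679_at, above the array median on 4 of 8 arrays, gave 107.6 and 53.5 in type A against 18.8 and 16.2 in spermatids and fell by 1.47 ± 0.34 (adjusted p = 0.00602). Which transcripts these probe sets read was not examined.

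Cct5, Cct2 and Cct8 had no called probe set in any comparison. Cct5, the epsilon subunit, gave 1267.8 and 1842.2 in type A, 1895.3 and 2043.7 in type B, 2132.5 and 2455.8 in pachytene cells, and 2085.6 and 2139.2 in spermatids, where the later values lay above the spermatogonial ones (0.58 ± 0.23 from type A to pachytene cells, limma adjusted p = 0.0658). Cct2, the beta subunit, gave 2617.8 and 2636.3, 2636.0 and 2459.1, 2175.4 and 2212.9, and 3003.0 and 2804.9 with its brightest probe set 1433535_x_at. In all 3 of its probe sets every spermatid value lay above every pachytene value, with changes of 0.37 to 0.42, of which 1433534_a_at had the smallest adjusted p (0.148). Cct8, the theta subunit, gave 1911.4 and 2048.4, 2108.1 and 1450.5, 1779.1 and 1960.7, and 1582.0 and 1283.4 with 1415785_a_at, and was 0.39 ± 0.24 lower in spermatids than in pachytene cells (adjusted p = 0.293). None of these changes passed the test against the replicate spread.

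**Figure D2:**
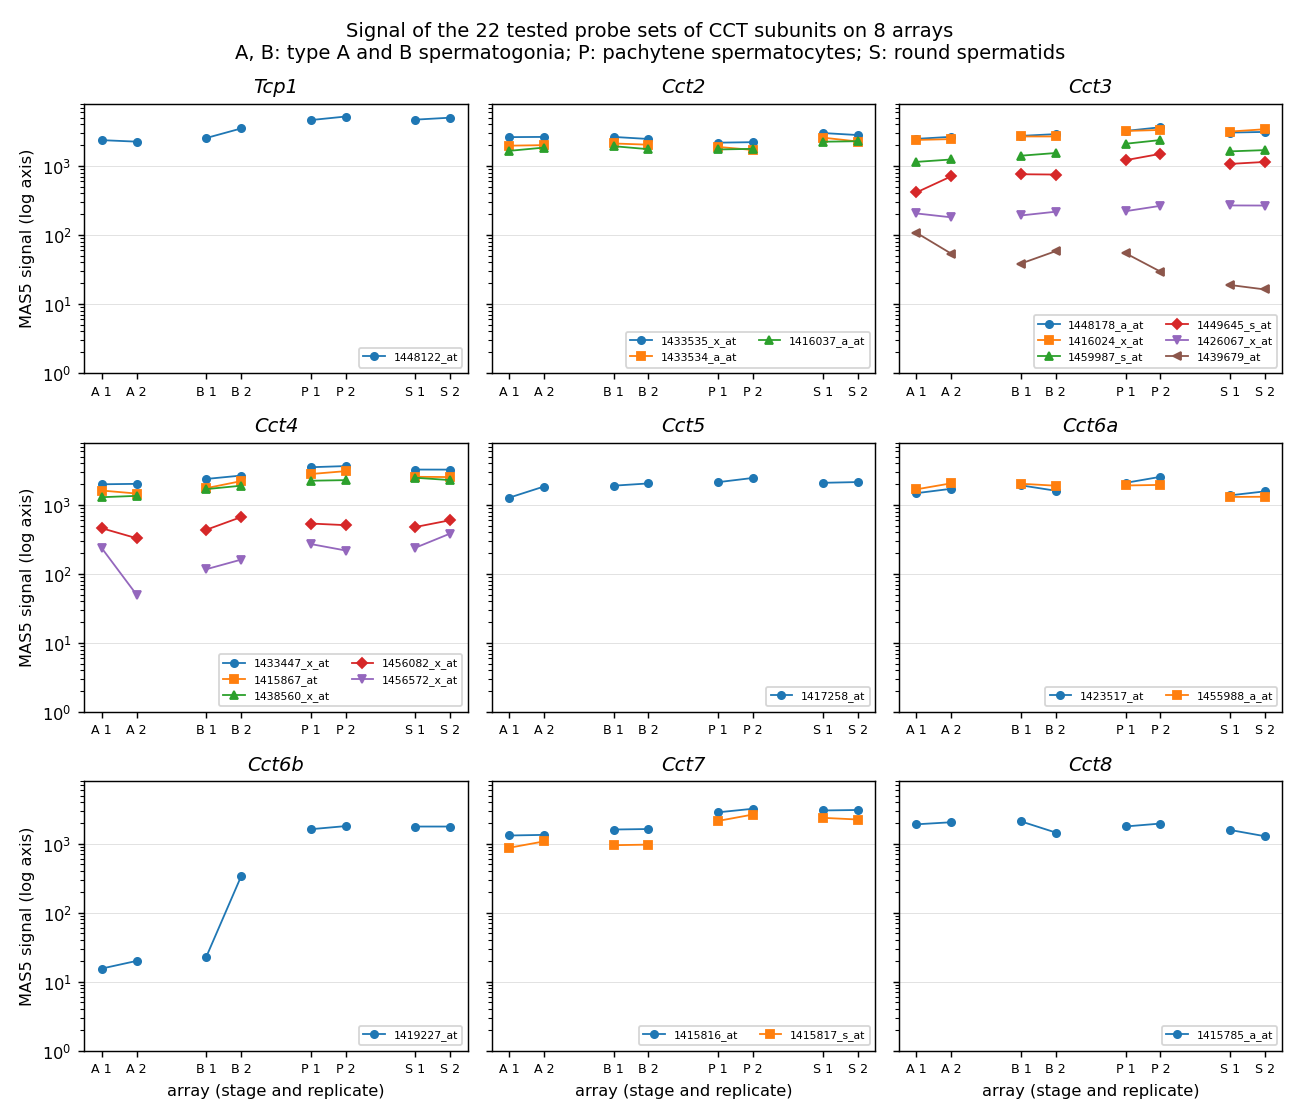
Signal of each tested probe set (points, log vertical axis, arbitrary MAS5 units) on the 8 arrays, 1 panel per gene, with a line joining the 2 replicates of a stage. Cct6b moves from 15.5 to 1801.1, Tcp1 and Cct7 step up at pachytene, and Cct2, Cct5, Cct6a and Cct8 stay between 1267.8 and 3003.0.

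Counted over probe sets, CCT calls between type B and pachytene cells were 7 higher and 0 lower of 22, where 20.3% of all 28635 tested probe sets were called higher and 29.4% lower. The median change of the 22 was 0.31 and that of all tested probe sets -0.14. The 7 were those of Tcp1, Cct6b, both of Cct7, 2 of Cct3 and 1 of Cct4. This count was lower in each fit with 1 array left out, also where that array was a type A or spermatid array, outside this comparison. Such fits have fewer residual degrees of freedom, and the part of this in the lower counts was not tested. Shares over all probe sets in these fits are not given here. Cct6b and both probe sets of Cct7 were among the calls in each of these fits. Counted over genes by their brightest probe set, Cct6b, Tcp1 and Cct7 were called higher, 3 of 9, where 24% of 14159 genes were.

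From type A to pachytene cells 9 of the 22 probe sets were called higher and 0 lower, where 22% of all tested probe sets were called higher and 34.7% lower, and the medians were 0.55 and -0.27. From type A to spermatids 8 were called higher and 1 lower, where 21.9% were called higher and 41.6% lower, and the medians were 0.45 and -0.46. By genes, Cct6b, Tcp1, Cct7 and Cct4 were called higher in both, 4 of 9, where 26.6% and 27.5% of all genes were. These comparisons share the type A arrays, so their calls are not separate evidence. Without either spermatid array the count against type A was 5 higher and 1 lower.

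Between pachytene cells and spermatids limma called 0 of the 22 CCT probe sets, where 27.5% of all tested probe sets were called, and the medians were -0.03 and -0.09. At an unadjusted p under 0.05 there were 2, both of Cct6a and lower in spermatids, where 38% of all probe sets passed, 4415 higher and 6475 lower. These 2 were called lower in the alternatives with a pseudocount of 64, with quantile normalization, with only the groups compared, and with a variance trend, the last of which also called 1433535_x_at of Cct2 higher. Between type A and type B limma called 0 of 22 CCT probe sets, and 0% of all probe sets were called. At an unadjusted p under 0.05 there were 0 CCT probe sets, and 1121 of all probe sets were higher and 1201 lower. The count of CCT calls was 1, Cct6b, without type B replicate 1.

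**Figure D3:**
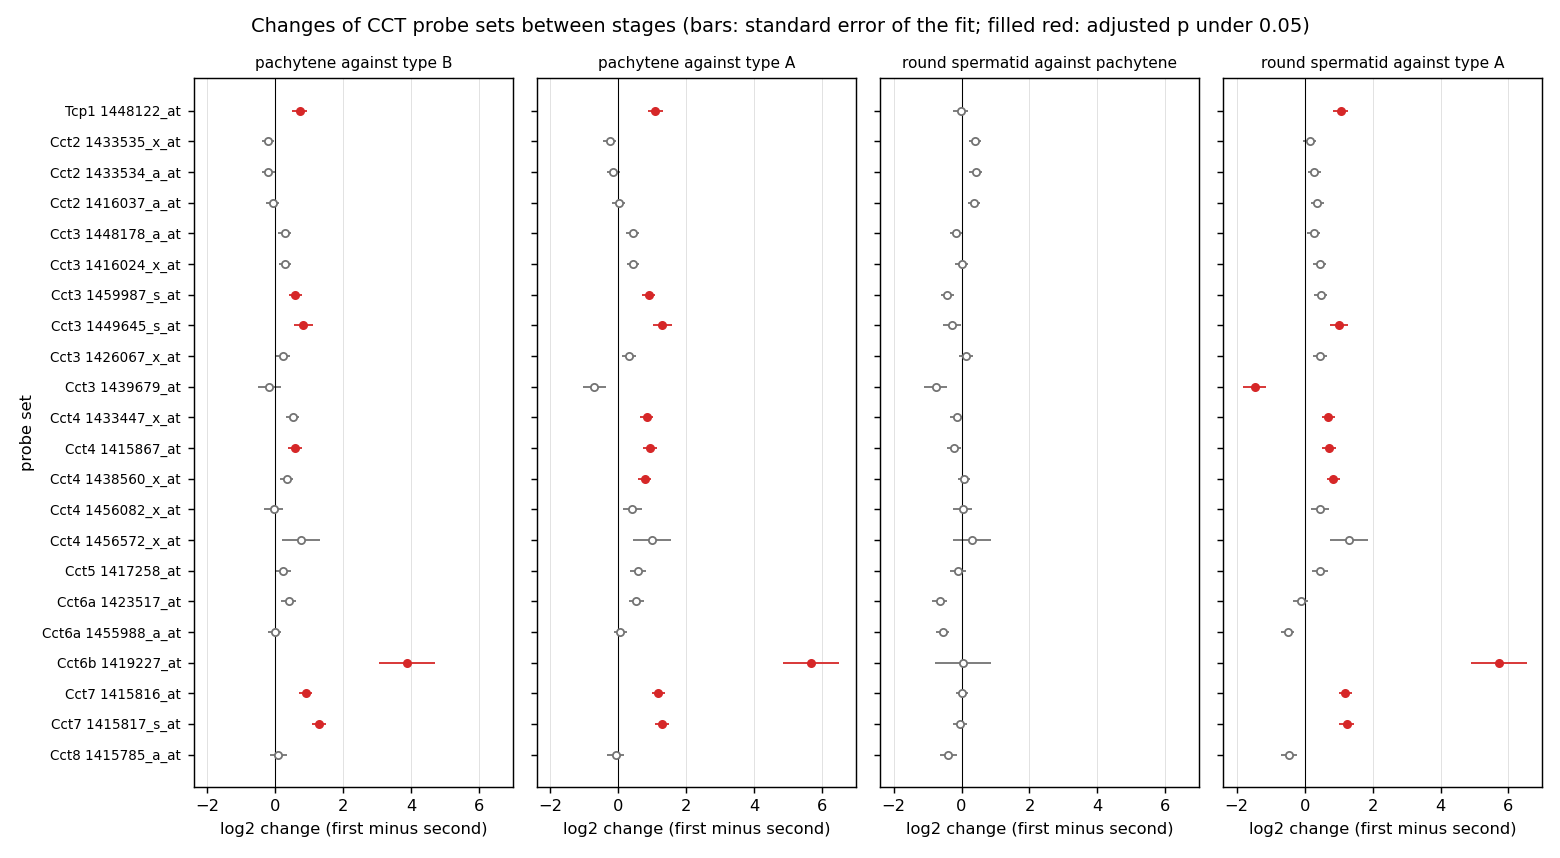
Log2 change of the 22 tested probe sets (rows) in 4 comparisons (panels), with bars for the standard error of the fit and filled red points for an adjusted p under 0.05. Cct6b lies at 3.88, 5.68, 0.05 and 5.73, the other called rises lie between 0.58 and 1.30, and no point is called between pachytene cells and spermatids. With arrays centred on ribosomal protein genes, 21 of the 22 probe sets are called higher in pachytene than in type B cells. Under that centring 15150 of all 28635 tested probe sets are called higher too.

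The scaling of the arrays set how many subunits were called. MAS5 signals had been scaled to a trimmed mean of 125 on every array, so a change compares a gene with the others on its array and is not per cell. Against that scaling, quantile normalization moved the median change of all probe sets between type B and pachytene cells by 0.17, centring on the 75th percentile by 0.32, and centring on 40 autosomal ribosomal protein genes by 1.07. All probe sets then split into 6963 higher and 6916 lower, 8515 and 6157, and 15150 and 2373, against 5804 and 8433 as deposited. The CCT calls were 5, 12 and 21 higher with 0 lower. From type A to pachytene cells the shifts were 0.25, 0.38 and 0.81, the splits 7545 and 7925, 8819 and 6970, and 11475 and 3858, against 6286 and 9928, and the CCT calls 8, 15 and 18 higher. From type A to spermatids the shifts were 0.28, 0.44 and 0.84, the splits 7599 and 9383, 8708 and 7927, and 10614 and 4190, against 6265 and 11925, and the CCT calls 6, 18 and 18 higher with 4, 1 and 0 lower. Cct6b, Tcp1 and both probe sets of Cct7 were called higher from type B and from type A to pachytene cells under each of the 3 scalings.

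Genes that work with CCT were followed as lists of its partners, each gene by its brightest probe set. Of all 14159 genes, 24% were called higher and 31.4% lower in pachytene than in type B cells (median change -0.073), and 14.9% were higher and 17% lower in spermatids than in pachytene cells (median -0.065). Each count is read against those shares, and no list was tested as a whole. Among 9 prefoldin and prefoldin-like genes, 0 were called higher and 4 lower in pachytene than in type B cells, and 3 were higher and 1 lower in spermatids than in pachytene cells, with medians of -0.54 and 0.0055. Without type B replicate 2 the 4 falls were 3. Vbp1, a prefoldin subunit encoded on the X chromosome, gave 479.9 and 588.0 in type A, 891.9 and 647.6 in type B, 38.1 and 60.4 in pachytene cells, and 163.3 and 206.1 in spermatids. It fell by 3.59 ± 0.27 from type B to pachytene cells (limma adjusted p = 1.57e-04) and rose by 1.63 ± 0.27 from there to spermatids (adjusted p = 0.00345). Uxt, an X-linked prefoldin-like gene, fell by 2.50 ± 0.19 and rose by 1.29 ± 0.19. Without type B replicate 2 the falls of Vbp1 and Uxt were -3.82 and -2.50. Uri1, a prefoldin-like scaffold protein on an autosome, rose by 2.58 ± 0.21 from pachytene cells to spermatids, where it gave 1054.5 and 1102.1 against 174.8 and 160.5. Its fall of 0.69 on the log2 scale from type B to pachytene cells turned to a change of 0.37 under ribosomal centring, and was -0.86 without type B replicate 2. Pfdn2, a prefoldin subunit, fell by 0.92 ± 0.22 from pachytene cells to spermatids, called in 15 of 19 alternatives.

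Of 4 phosducin-like cofactors, 1 was called higher and 2 lower in pachytene than in type B cells, also without type B replicate 2, and 0 higher and 1 lower in spermatids than in pachytene cells. The medians were -0.44 and 0.17. Pdcl2, a phosducin-like protein known from germ cells, gave 10.6 and 0.4 in type A, 7.2 and 1145.7 in type B, 3023.9 and 3717.6 in pachytene cells, and 4141.2 and 4773.6 in spermatids. Like Cct6b it was low on 3 spermatogonial arrays and between on type B replicate 2, whose gap to replicate 1 was 33.8% of the difference between the pachytene mean and replicate 1. It rose by 7.33 ± 1.45 from type A (limma adjusted p = 0.00326) and by 4.36 ± 1.45 from type B (adjusted p = 0.0364), the latter called in 11 of 19 alternatives. That rise was 7.18 without type B replicate 2 and 1.54 without type B replicate 1, called in both, so its size depended on a single array. Pdcl3, which is known to bind CCT, fell by 2.05 ± 0.27 from type B to pachytene cells. Pdcl fell by 1.29 ± 0.26 in that comparison (without type B replicate 2, -2.30 for Pdcl3 and -1.47 for Pdcl) and by 0.88 ± 0.26 from pachytene cells to spermatids, the first not called under ribosomal centring and the second called in 10 of 19 alternatives.

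Of 6 tubulin folding cofactors, 2 were called higher and 1 lower in pachytene than in type B cells, and 2 higher and 3 lower in spermatids than in pachytene cells, with medians of 0.19 and -0.20. The first count was the same without type B replicate 2, and 1 higher and 0 lower without type B replicate 1. Tbcel, which destabilises tubulin, peaked in pachytene cells, with 653.1 and 616.4 there against 237.7 and 269.0 in type B and 142.4 and 110.0 in spermatids. It rose by 1.27 ± 0.23 (1.36 without type B replicate 2) and then fell by 2.20 ± 0.23. Tbce, of the cofactor complex that assembles tubulin dimers, rose by 1.36 ± 0.22 from pachytene cells to spermatids, Tbcc rose by 0.86 ± 0.23 and Tbcd fell by 0.99 ± 0.26, these last called in 14 and 13 of 19 alternatives. From type B to pachytene cells Tbcc rose by 0.89 ± 0.23 and Tbce fell by 0.68 ± 0.22, called in 17 and 10 of 19 alternatives. Without type B replicate 2 these changes were 1.02 and -0.91.

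Among 5 chaperonin-related genes outside CCT, 1 was higher and 3 were lower in pachytene than in type B cells, and 2 were higher and 2 lower in spermatids than in pachytene cells, with medians of -0.67 and 0.57. Without type B replicate 2, or without type B replicate 1, the 3 falls were 2. Hspd1, the mitochondrial chaperonin, gave 1487.5 and 1556.3 in type A, 1690.6 and 1145.0 in type B, 181.9 and 231.5 in pachytene cells, and 347.8 and 281.5 in spermatids. It fell by 2.67 ± 0.25 from type B to pachytene cells (limma adjusted p = 2.67e-04), and its co-chaperonin Hspe1 fell by 3.31 ± 0.22 (adjusted p = 1.43e-04). Both falls were called in 19 of 19 alternatives, at -2.95 and -3.22 without type B replicate 2. Bbs10, a chaperonin-like protein of the Bardet-Biedl group, rose by 1.51 ± 0.19 (also 1.51 without type B replicate 2) to 236.9 and 238.4 in pachytene cells, and Bbs12, of the same group, rose by 1.11 ± 0.28 from there to spermatids, called in 14 of 19 alternatives.

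Of 21 actin and tubulin genes, the clients of CCT, 17 were tested, and 0 were called higher and 7 lower in pachytene than in type B cells, with 5 higher and 1 lower in spermatids than in pachytene cells. The medians were -0.44 and 0.15, and 7 were also lower without type B replicate 2. Tuba1b, Tuba1c and Tuba3a had no probe set of their own, and Acta1 did not pass the filter. Tubb6 gave 184.4 and 272.1 in type B, 21.2 and 8.9 in pachytene cells, and 490.4 and 446.8 in spermatids, so that it fell by 2.98 ± 0.37 and then rose by 3.99 ± 0.37. Tubb2a fell by 3.31 ± 0.30 and rose by 2.68 ± 0.30. Without type B replicate 2 these falls were -2.72 and -3.22. Tuba8 rose by 3.60 ± 0.23 to 821.7 and 964.8 in spermatids, and Actg2, a smooth muscle actin, rose by 3.20 ± 0.39 to 1081.4 and 1207.8. Tubulin and actin genes are near-identical in places, so a probe set may also read a relative. Acta2, which is on this list and among the stromal markers, changed by -2.72 ± 0.24 from type B to pachytene cells. Without type B replicate 2 this change was -2.74. Acta2 is thus counted both in the falls of this list and in those of the stromal markers. Stromal markers, whose sum fell from 13871 and 14660 in type B to 703 and 942 in pachytene cells, moved with the falls in these lists, and their part was not tested.

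**Figure D4:**
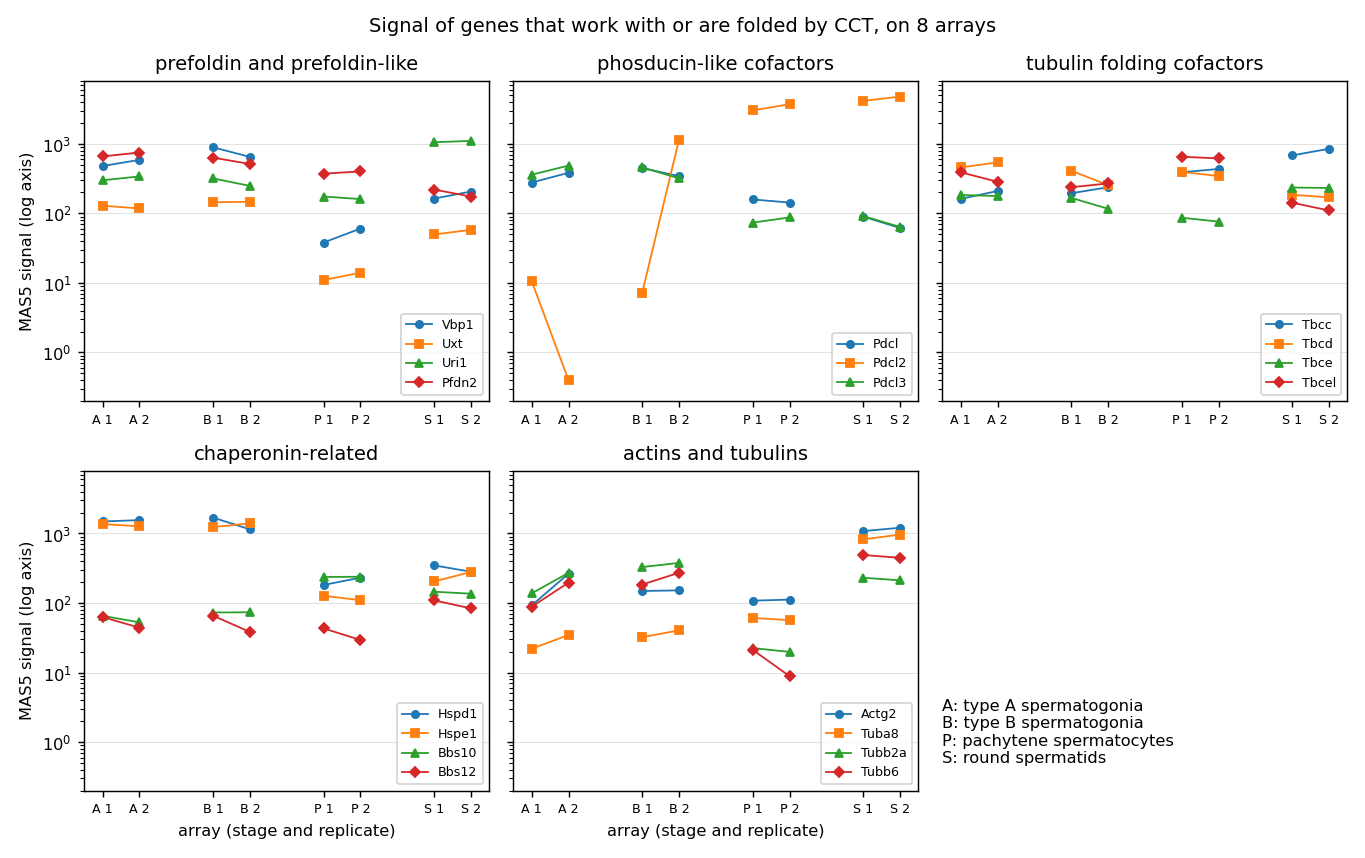
Signal (log vertical axis, arbitrary MAS5 units) on the 8 arrays of up to 4 called genes from each partner list, with a line joining the 2 replicates of a stage. Pdcl2 rises from at most 10.6 on 3 spermatogonial arrays to at least 3023.9 on the later arrays, Vbp1 and Uxt are lowest in pachytene cells, and Hspd1 and Hspe1 step down at pachytene.

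Genes that start next to CCT genes on the opposite strand were chosen after their values were seen. Each change of these neighbours, to pachytene cells or to spermatids, is given against type A. Zfp830, whose start is 24 bases from the listed start of Cct6b, gave 210.7 and 200.1 in type A, 248.0 and 249.2 in type B, 259.9 and 343.5 in pachytene cells, and 492.5 and 468.3 in spermatids. It changed by 0.51 ± 0.21 from type A to pachytene cells (limma adjusted p = 0.0674, not called) and rose by 1.16 ± 0.21 from type A to spermatids (limma adjusted p = 0.00166). Tsacc, a co-chaperone of a testis kinase whose start is 136 bases from that of Cct3, gave 81.6 and 47.8, 58.0 and 427.5, 517.9 and 918.4, and 944.3 and 1529.4, a rise of 3.16 ± 0.74 from type A to pachytene cells (adjusted p = 0.00742) and of 3.95 to spermatids (adjusted p = 0.00217). Atpsckmt beside Cct5 gave 103.5 and 74.0 and 86.4 and 91.8 in spermatogonia against 6.5 and 24.8 in pachytene cells, and fell by 1.78 ± 0.31 to pachytene cells (adjusted p = 0.00186) and by 1.02 to spermatids (adjusted p = 0.0213). Mrpl18 beside Tcp1 changed by 0.044 to pachytene cells (not called) and rose by 0.58 ± 0.21 to spermatids (adjusted p = 0.0423). Psph beside Cct6a changed by -0.43 and 0.13, and Pradc1 beside Cct7 by 0.22 and -0.053, none of them called. B130034C11Rik beside Cct8 did not pass the filter. The neighbours called thus moved in both directions.

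Across the 8 arrays, the 5 genes whose log2 signal was most like that of Cct6b, of 14150 compared, were Cfap299, Lrrc46, Ppp1r14bl, 1700029F12Rik and Trim69, with Pearson r of 0.9991 to 0.9997. Cfap299, for example, gave 1.5 and 3.2 in type A, 6.5 and 158.0 in type B, 809.2 and 933.7 in pachytene cells, and 969.4 and 853.9 in spermatids. In all, 1004 genes had r above 0.95 with Cct6b, so the pattern was a common one. For the mean of the other 8 subunits the nearest were Pgrmc2, Zswim7, Uqcrc1, Ndufs3 and Tbrg1, with r of 0.984 to 0.990, and 169 genes had r above 0.95. These r values describe 8 arrays in 4 stages and share the scaling of each array.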

How the data were processed

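The authors deposited 1 linear intensity per probe set and array. The submitters' processing notes name MAS5, whose version and detection calls were not given in the sources used here. After 2% of values were trimmed at each end, the deposited intensities had the same mean, 125, on all 8 arrays. Median signal was 41.5 to 51.9 on spermatogonial and 33.6 to 37.3 on later arrays. Precision is limited by the number of arrays.

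Of 45101 probe sets, 64 controls were left out, 34945 listed 1 gene (34741 matched by Entrez identifier to RefSeq GRCm38.p6), 932 several and 9160 none. Probe sets with several genes named none.

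Values were analysed as log2(signal + 16). Probe sets above their array's median on at least 2 arrays (28635) were fitted with limma 3.58.1 in R 4.3.3, with 1 mean per group over all 8 arrays (4 residual degrees of freedom, prior 3.91), eBayes without trend, two-sided tests and Benjamini-Hochberg adjustment over all tested probe sets within each of 5 comparisons. Calls are at an adjusted p under 0.05, and ± is the standard error. The fit was tested on simulated data, but the outcome is not given here and is not used as support for the calls. P-values measure the spread between preparations, pooled over groups. A gene stands by its brightest probe set (14159 genes tested). Exact permutation tests used Python 3.11.15.

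Named were all members, at most 4 called genes per partner list with the largest change in pachytene against type B or spermatids against pachytene (prefoldin, phosducin-like, tubulin folding, chaperonin-related, actins and tubulins), and the 5 genes most like Cct6b and like the mean of the other 8. Marker lists held undifferentiated and differentiating spermatogonia, pachytene spermatocyte, round spermatid, Sertoli, Leydig, peritubular and stromal, and macrophage and blood genes. Acta2 was named as well, being both a client and a stromal marker. Members and lists were chosen with earlier results of these data known. Alternatives changed the pseudocount, filter, scaling, variance model, samples fitted, probe set choice and replicate block, and left out each array.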

Additional observations from a re-analysis of the deposited data

How the results depend on the processing

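Settings were changed 1 at a time. CCT probe sets called higher in pachytene than in type B cells were 4 with a pseudocount of 1, 12 with arrays centred on the 75th percentile, 21 centred on ribosomal protein genes, 4 with only the groups compared and 4 with 1 probe set per gene, against 7; leaving out 1 array gave 3 to 6. Against type A they were 15, 18 and 4 (75th percentile, ribosomal, 1 probe set per gene) in pachytene cells, against 9, and 19, 18 and 4 in spermatids, against 9 in either direction. Between pachytene cells and spermatids, CCT calls were 2 with a pseudocount of 64, quantile normalization or only the groups compared, 3 with a variance trend and 1 with 1 probe set per gene, against 0. With 1 probe set per gene, 9 CCT probe sets were tested in place of 22, so each count of CCT calls there is of 9. All calls in either direction, of 14159 genes, were then 8232, 8898, 4948 and 9916 from type B to pachytene cells, type A to pachytene cells, pachytene cells to spermatids and type A to spermatids. Those called higher were 3607, 3855, 2256 and 3990 in the same order. Under the 75th percentile and ribosomal centring, 8515 and 15150 of all 28635 tested probe sets were called higher in pachytene than in type B cells. With quantile normalization, 3272 were called higher and 3806 lower in spermatids than in pachytene cells. For the changed pseudocounts, only the groups compared, the variance trend and the replicate block, counts over all probe sets are not given here. Leaving out 1 array gave 3902 to 8974 calls over all probe sets between pachytene cells and spermatids, against 7862. Between type A and type B it gave 0 to 1134 calls over all probe sets, 0 to 1 CCT calls and a Cct6b change of 0.21 to 3.39. The Cct6b change between pachytene cells and spermatids ran from -0.021 to 0.13 with 1 array left out, and was -0.048 with quantile normalization. The later minus spermatogonial difference of Cct6b and Cct6a ran from 4.37 to 5.52, with the exact permutation p at 0.0571 when a later array was left out (35 splits). The other causes were not tested.

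Changes of CCT genes that turned sign were uncalled as deposited. Among partner genes, chosen here after their values were seen, called falls turned sign under ribosomal centring for Uri1 (0.37), Pdrg1 (0.38), Tbce (0.39), Mkks (0.40) and Tuba4a (0.015) from type B to pachytene cells, Mkks (0.097) from type A to pachytene cells and Pdrg1 (0.20) from type A to spermatids. For CCT genes, between type A and type B these were Cct3 (-0.026 quantile, -0.13 ribosomal), Cct6a (-0.12 ribosomal), Cct2 (0.015 75th percentile, -0.095 to 0.0049 with 1 array left out) and Cct8 (-0.44 to 0.091 with 1 array left out). From type B to pachytene cells they were Cct8 (-0.12 quantile, -0.17 to 0.36 with 1 array left out) and Cct2 (0.11 75th percentile, 0.85 ribosomal, a called rise). From type A to pachytene cells they were Cct2 (0.13 and 0.55) and Cct8 (0.30 and 0.72) under the 75th percentile and ribosomal centring. Between pachytene cells and spermatids they were Cct7 (-0.16 quantile, -0.071 to 0.099 with 1 array left out) and Tcp1 (0.041 75th percentile, 0.018 ribosomal, -0.10 to 0.068 with 1 array left out). From type A to spermatids they were Cct2 (-0.15) and Cct3 (-0.0047) with quantile normalization, Cct6a (0.33 75th percentile, 0.73 ribosomal) and Cct8 (0.37 ribosomal).

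Deviations of same-numbered replicates correlated at r from -0.27 to 0.35 over group pairs, and the main fit did not pair the samples by number. These r values cannot exclude that some of the samples were paired. With the replicate block, CCT calls were 6 from type B to pachytene cells, 9 from type A to pachytene cells and 9 from type A to spermatids, and the 4-stage p of Cct6b minus Cct6a was 0.0381 (exact permutation test). The planned test of Cct6b against the mean of the other subunits, and the 4-stage test without an array, were not run. Detection calls were not used here, so the size of a rise from signals below the array median, as for Cct6b, is less certain than its direction.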
